A study of Homo sapiens with 12 samples.

Results

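The genes described are 10 members of the cell death machinery: BBC3, PMAIP1 and BCL2L11 (BH3-only proteins), MCL1 and BCL2L1 (antiapoptotic proteins), BAX and BAK1 (effectors), and TNFRSF10A, TNFRSF10B and FAS (death receptors). They were chosen by name from the gene table, and 10 of its 58735 genes matched. All 10 reached 1 FPKM in at least 3 of the 12 libraries, the filter below which genes were not tested, and FAS did so in 4 libraries only, of the control and PA+BMS groups. FPKM is a fragment count scaled to gene length and library size, so levels can be set side by side between genes.

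RNA was measured in HepaRG cells, an established human hepatic line of wild-type genotype per the labels, in 4 groups of 3 libraries. Control cells were left untreated. PA cells received deuterium-labelled palmitate, a saturated fatty acid, at 400 µM over 4 h. PA+OA cells received 400 µM palmitate with oleate, a monounsaturated fatty acid, at 200 µM over the same 4 h, so their total fatty acid was higher. PA+BMS cells received 400 µM palmitate over 4 h and BMS-309403, which inhibits the fatty acid-binding protein FABP4, at 50 µM over 24 h. No group with oleate or BMS-309403 alone is analysed here, so their own effects and their effects on the palmitate response cannot be told apart. Nothing in the labels says that replicates came from separate cultures, and the p-values measure only the spread between these libraries, which may be technical.

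In the mitochondrial pathway of apoptosis, BAX and BAK1 open the outer mitochondrial membrane, and antiapoptotic proteins such as those of MCL1 and BCL2L1 hold them and the BH3-only proteins in check. BH3-only proteins are switched on, often by new transcription, when a cell is stressed. Death receptors act from the cell surface: FAS binds FAS ligand, TNFRSF10A and TNFRSF10B bind TRAIL, and all of them recruit FADD and caspase-8. In hepatocytes, excess palmitate is known to bring on endoplasmic reticulum stress and cell death, a process called lipotoxicity, and DDIT3 is a stress-induced factor known to raise transcription of TNFRSF10B and of several BH3-only genes.

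Depth was even, with 16059128 to 19971190 reads recovered per library. On the first principal component of all tested genes, which held 54.4% of the variance, PA+OA replicate 1 stood at 54.6 and PA+BMS replicate 3 at -51.5, outside the range of -27.1 to 28.0 of the other libraries. The loadings of that component rose with the GC content of the transcript (Spearman's rho 0.68 across genes, which are not independent). BBC3, BCL2L1, BAX and BAK1 were highest of all 12 libraries in PA+OA replicate 1, and MCL1 was lowest there and highest in PA+BMS replicate 3, so values without these libraries are given beside the results. Mitochondrial ribosomal RNA made up 0.610% to 0.784% of reads in control, 0.663% to 0.977% with PA, 1.50% to 2.10% with PA+OA and 0.780% to 1.51% with PA+BMS, and its part in the results was not tested. The label as a hepatic line was not matched by hepatocyte markers: 8 of 8, ALB and FABP1 among them, stayed under 1 FPKM in every library. In bulk RNA, fewer cells of a type and less RNA per cell cannot be told apart.

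The promoters of the BH3-only genes are shown because BBC3 and PMAIP1 were called higher than control in all 3 treated groups, and BCL2L11 in 2 of them. The windows are from RefSeq (GRCh38.p14) and run 5′ to 3′ on the gene's strand from 250 bases before to 50 bases after its start; 7 of the 10 genes had one. Capitals mark a match, on either strand, to TGATGNAA (the C/EBP-ATF composite site), TGACGTCA (the CRE), TGACG (its shorter core, which the CRE also holds) or TGANTCA (the AP-1 site).
BBC3, chr19:47232618-47232917, minus strand: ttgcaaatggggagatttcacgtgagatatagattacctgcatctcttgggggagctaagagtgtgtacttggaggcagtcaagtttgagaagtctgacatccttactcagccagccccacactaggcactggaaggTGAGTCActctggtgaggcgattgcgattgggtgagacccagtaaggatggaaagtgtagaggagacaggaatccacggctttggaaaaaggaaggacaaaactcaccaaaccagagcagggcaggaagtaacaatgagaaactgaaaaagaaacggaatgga
PMAIP1, chr18:59899746-59900045, plus strand: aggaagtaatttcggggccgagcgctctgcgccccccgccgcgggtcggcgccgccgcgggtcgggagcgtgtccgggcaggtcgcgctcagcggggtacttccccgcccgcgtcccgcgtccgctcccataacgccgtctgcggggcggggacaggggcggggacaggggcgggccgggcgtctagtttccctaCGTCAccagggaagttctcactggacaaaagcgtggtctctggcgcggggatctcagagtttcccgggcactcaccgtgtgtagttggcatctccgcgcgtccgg
BCL2L11, chr2:111120664-111120963, plus strand: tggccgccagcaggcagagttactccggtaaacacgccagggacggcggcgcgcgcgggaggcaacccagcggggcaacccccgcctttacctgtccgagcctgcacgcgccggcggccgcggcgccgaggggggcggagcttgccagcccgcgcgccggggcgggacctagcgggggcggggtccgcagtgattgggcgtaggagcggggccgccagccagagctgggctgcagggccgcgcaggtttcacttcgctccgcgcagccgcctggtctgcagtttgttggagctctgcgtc

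The BBC3 window held 1 AP-1 match, 113 bases before the start, and the PMAIP1 window held 1 TGACG on its minus strand, 55 bases before the start. The BCL2L11 window held none of the 4 motifs. Among all 35116 windows of this length, 7.71% held TGANTCA, 24.6% TGACG, 3.62% TGATGNAA and 1.85% TGACGTCA. FAS also held TGANTCA, BAX and BCL2L1 also held TGACG, and none of the 7 genes held the other motifs. A match is a description of the letters and shows no binding. GC content of the 3 windows was 48.0% for BBC3, 71.3% for PMAIP1 and 74.7% for BCL2L11.

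Differences were tested with limma on log2(FPKM + 1), a scale that understates changes of low genes, and a gene was called when its p, Benjamini-Hochberg adjusted over all 11856 tested genes, was under 0.05. Log2 changes are on that scale, with the standard error of the fit or its 95% interval. PA against control had calls for 5 of the 10 genes, where 27.6% of all tested genes were called: 4 were higher, as were 12.8% of all genes, and 1 was lower, as were 14.8%. PA+OA against PA had 1 call, a rise, where 7.91% of all genes were called and 4.01% rose. PA+BMS against PA had 4 calls where 54.5% of all genes were called, so that a call is common: 1 gene rose (25.2% of all genes) and 3 fell (29.4%). Against control, 7 were called with PA+OA, where 36.3% of all genes were: 6 rose (17.5% of all genes) and 1 fell (18.8%). With PA+BMS 4 were called against control, where 11.0% of all genes were: 3 rose (4.77%) and 1 fell (6.25%). PA+BMS against PA+OA had 5 calls, where 49.6% of all genes were called: 1 rose (23.1%) and 4 fell (26.4%). The falls in PA and in PA+OA against control, and the rises in PA+BMS against PA and against PA+OA, were of FAS alone. FAS was tested only because it passed the filter through control and PA+BMS libraries, where it was high. With no filter on low values, only the FAS rise in PA+BMS against PA was still called. Comparisons that share a group share its libraries and are not independent.

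The libraries of the groups did not overlap for 6 of the 10 genes between PA and control, where this held for 60.6% of all genes, and for 2 between PA+OA and PA, where it held for 24.9%. The count was 8 between PA+BMS and PA (69.5% of all genes), 7 between PA+OA and control (49.7%), 5 between PA+BMS and control (35.9%) and 8 between PA+BMS and PA+OA (59.4%). The median log2 change of the 10 genes was 0.27 for PA against control, 0.20 for PA+OA against PA and -0.14 for PA+BMS against PA. Over all tested genes these medians were 0.028, -0.0024 and -0.044. Against control the genes' median was 0.67 in PA+OA and 0.092 in PA+BMS, where all genes had 0.011 and -0.018.

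**Figure D1:**
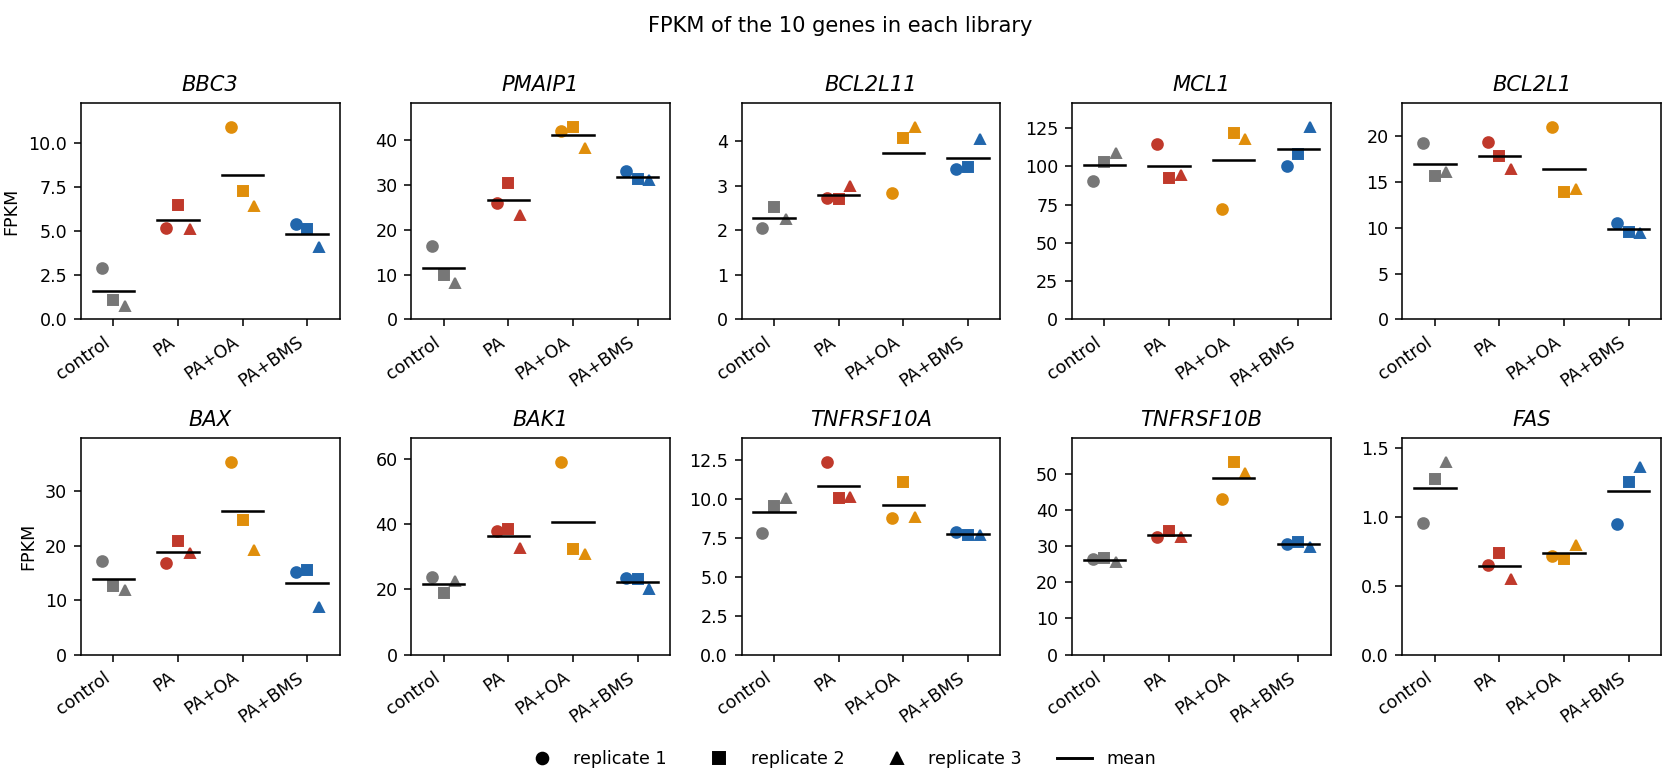
FPKM (vertical axes from 0, one scale per gene) of the 10 genes in the 12 libraries by group, with a symbol for each replicate number and a bar at the group mean. BBC3 and PMAIP1 lie lowest in the 3 control libraries, BCL2L1 lowest in the 3 PA+BMS libraries, and PA+OA replicate 1 is the highest library for BBC3, BCL2L1, BAX and BAK1.

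Of the BH3-only genes, BBC3 and PMAIP1 were above control in all 3 treated groups, and neither was called when PA+OA or PA+BMS was set against PA. BBC3 (ENSG00000105327, GRCh38 chromosome 19, 47220822 to 47232766) encodes PUMA, a BH3-only protein that binds every antiapoptotic member. It was at 2.91, 1.10 and 0.774 FPKM in control replicates 1 to 3, at 5.21, 6.51 and 5.14 with PA, at 10.9, 7.28 and 6.42 with PA+OA and at 5.40, 5.12 and 4.09 with PA+BMS. Every treated library was above every control library, control replicate 1 was the highest control, and the treated groups were apart only between PA+OA and PA+BMS. The mean was 1.59 ± 1.15 FPKM in control and 5.62 ± 0.769 in PA (SD, n = 3 each), a ratio of 3.52, which became 5.99 without control replicate 1. The log2 change of BBC3 was 1.43 ± 0.26 (SE) between PA and control, with a limma adjusted p of 0.00476. Against control it was 1.88 in PA+OA (adjusted p = 0.000272) and 1.26 in PA+BMS (adjusted p = 0.00955). The difference of BBC3 between PA+OA and PA was 0.45, with an interval of -0.11 to 1.01, and between PA+BMS and PA it was -0.17, with an interval of -0.73 to 0.39.

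PMAIP1 (ENSG00000141682, chromosome 18, 59899948 to 59904306) encodes NOXA, a BH3-only protein that binds MCL1 by preference. Control libraries had 16.5, 9.89 and 8.24 FPKM of PMAIP1, PA libraries 26.0, 30.4 and 23.2, PA+OA libraries 42.1, 42.9 and 38.2, and PA+BMS libraries 33.1, 31.4 and 31.1. The 4 groups did not overlap at all, in the order PA+OA, PA+BMS, PA and control. The means were 11.5 ± 4.36 in control, 26.6 ± 3.61 with PA, 41.1 ± 2.54 with PA+OA and 31.9 ± 1.10 with PA+BMS (SD, n = 3 each). PMAIP1 rose by 1.18 ± 0.19 (SE) on the log2 scale in PA against control (limma adjusted p = 0.00278). Its rise against control was 1.80 in PA+OA (adjusted p = 5.28e-05) and 1.44 in PA+BMS (adjusted p = 0.000686). PMAIP1 differed by 0.62 between PA+OA and PA, which was not called (adjusted p = 0.0727), and was called without control replicate 1 (adjusted p = 0.0113). Between PA+BMS and PA it differed by 0.26, which was not called (adjusted p = 0.256). That difference was called with library totals set equal (0.63, adjusted p = 0.017), where the median of all genes was 0.24, and with quantile normalization (0.59, adjusted p = 0.0277). Once the trend with GC content and length was removed it was -0.085 (adjusted p = 0.775). The 3 rises of each of BBC3 and PMAIP1 against control were called in every alternative that was run and with each library left out in turn.

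BCL2L11 (ENSG00000153094, chromosome 2, 111119378 to 111168447) encodes BIM, which can activate BAX and BAK1 directly. It was at 2.04, 2.51 and 2.25 FPKM in control, 2.71, 2.69 and 2.99 with PA, 2.83, 4.07 and 4.31 with PA+OA, and 3.37, 3.43 and 4.05 with PA+BMS. Control was lowest with no overlap with any treated group, and PA+OA replicate 1 lay with the PA libraries and below the other PA+OA libraries. BCL2L11 rose by 0.52 ± 0.13 (SE) in PA+OA against control (limma adjusted p = 0.00965) and by 0.50 ± 0.13 in PA+BMS against control (adjusted p = 0.0302). The former was not called with library totals set equal (0.35, adjusted p = 0.151), where the median of all genes was -0.17. The latter call was lost without any one of the control or PA+BMS libraries, with an adjusted p of up to 0.106, with library totals set equal (adjusted p = 0.0682) and with no filter on low values (adjusted p = 0.0712). Its log2 change between PA and control was 0.22, with an interval of -0.065 to 0.50 (adjusted p = 0.201). Without the 2 libraries that stood apart that same change was called (adjusted p = 0.0394), as was the difference of 0.45 between PA+OA and PA (adjusted p = 0.00619). Between PA+BMS and PA+OA the change was -0.026, which was not called. Once the trend with GC content and length was removed it was -0.36 and was called (adjusted p = 0.00408). An antisense-strand transcript, MIR4435-2HG, shares exonic bases with BCL2L11 and reached 1.12 FPKM, and since the strand setting of the counting is not given, reads of the pair cannot be told apart.

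**Figure D2:**
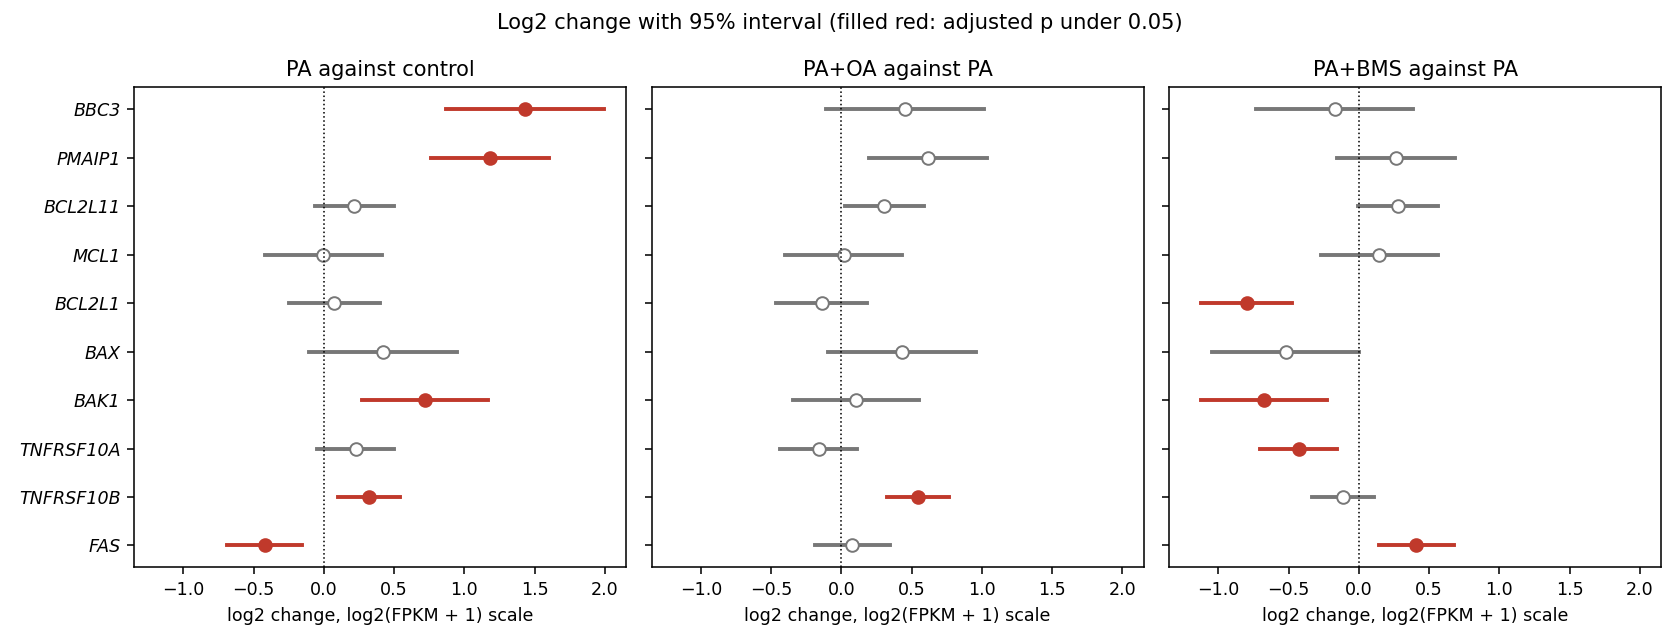
Log2 change (horizontal axis, log2(FPKM + 1) scale) with its 95% interval for the 10 genes in the 3 main comparisons; red filled points have a limma adjusted p under 0.05. PA against control has 4 red points to the right and FAS to the left, PA+OA against PA has TNFRSF10B alone, and PA+BMS against PA has BCL2L1, BAK1 and TNFRSF10A to the left and FAS to the right.

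Of the antiapoptotic genes, BCL2L1 was lower in PA+BMS than in every other group and MCL1 was called in no comparison. BCL2L1 (ENSG00000171552, chromosome 20, 31664452 to 31723989) encodes BCL-XL and, by another splice form, a proapoptotic protein, and gene-level values do not separate the forms. BCL2L1 was at 19.2, 15.6 and 16.1 FPKM in control, 19.4, 17.9 and 16.4 with PA, 21.0, 13.9 and 14.2 with PA+OA, and 10.5, 9.59 and 9.41 with PA+BMS. All 3 PA+BMS libraries lay below the other 9, and the other 3 groups overlapped one another. The mean of BCL2L1 was 17.9 ± 1.50 FPKM in PA and 9.84 ± 0.584 in PA+BMS (SD, n = 3 each), 1.82-fold lower. Its log2 change was -0.80 ± 0.15 (SE) in PA+BMS against PA (limma adjusted p = 0.0039), -0.73 against control (adjusted p = 0.00962) and -0.66 against PA+OA (adjusted p = 0.00653). The first and second of these were called in every alternative and with each library left out, and the third was not called after removal of the trend with GC content and length (adjusted p = 0.0506). BCL2L1 differed by 0.074 between PA and control, with an interval of -0.25 to 0.40, and by -0.14 between PA+OA and PA, with an interval of -0.46 to 0.18. Without the 2 libraries that stood apart the latter was -0.32 and was called (adjusted p = 0.0471). Between PA+OA and control BCL2L1 differed by -0.066, which was not called. That change was called with the trend removed (-0.37, adjusted p = 0.00658). It was also called with library totals set equal (-0.29, adjusted p = 0.0285), where the median of all genes was -0.17.

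MCL1 (ENSG00000143384, chromosome 1, 150574551 to 150579738) encodes a short-lived antiapoptotic protein, and it was the most abundant of the 10 transcripts per length in every library. It was at 90.2, 103 and 109 FPKM in control, 115, 92.6 and 94.1 with PA, 71.9, 122 and 118 with PA+OA, and 100.2, 108 and 126 with PA+BMS. The groups overlapped throughout, and the spread was widest in PA+OA, where replicate 1 was the lowest of all 12 libraries. The log2 change of MCL1 was -0.0036 between PA and control, with an interval of -0.42 to 0.41. It was 0.016 between PA+OA and PA, with an interval of -0.40 to 0.43, and 0.15 between PA+BMS and PA, with an interval of -0.27 to 0.56. These intervals leave room for changes in either direction.

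Both effectors were higher in PA+OA than in control, and BAK1 also in PA. BAK1 (ENSG00000030110, chromosome 6, 33572547 to 33580293), whose protein sits in the outer mitochondrial membrane, was at 23.8, 18.8 and 22.6 FPKM in control, 38.0, 38.4 and 32.6 with PA, 59.0, 32.3 and 30.9 with PA+OA, and 23.5, 23.2 and 20.3 with PA+BMS. The PA and PA+OA libraries were all above those of control and PA+BMS, and PA+OA replicate 1 stood far above the other PA+OA libraries. BAK1 rose by 0.72 ± 0.21 (SE) in PA against control (limma adjusted p = 0.0262), from 21.7 ± 2.61 to 36.3 ± 3.21 FPKM (SD, n = 3 each). It fell by 0.68 ± 0.21 in PA+BMS against PA (adjusted p = 0.0179), a comparison that uses the same PA libraries, and PA+BMS differed from control by 0.041, with an interval of -0.41 to 0.49. In PA+OA against control it rose by 0.82 (adjusted p = 0.00995), a call kept in every alternative and with each library left out; without the 2 libraries that stood apart the rise was 0.53. The BAK1 call in PA against control was lost without control replicate 2 or 3 or PA replicate 1 or 2, with an adjusted p of up to 0.109. The call in PA+BMS against PA was lost without PA replicate 1 or 2 or PA+BMS replicate 3, with an adjusted p of up to 0.0625. Once the trend with GC content and length was removed, BAK1 was at 0.34 in PA against control (adjusted p = 0.0691) and at -0.14 in PA+BMS against PA (adjusted p = 0.394). BAK1 in PA+BMS against PA+OA fell by 0.78 (adjusted p = 0.0116), which was not called with only those groups fitted (adjusted p = 0.0578) or with the trend removed (-0.25, adjusted p = 0.12). With no filter on low values, neither the PA against control call of BAK1 (adjusted p = 0.0838) nor the PA+BMS against PA call (adjusted p = 0.0599) was kept. With library totals set equal the latter change was -0.31 (adjusted p = 0.0674), where the median of all genes was 0.24.

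BAX (ENSG00000087088, chromosome 19, 48954815 to 48961798) encodes the effector that moves from the cytosol to mitochondria. Its libraries had 17.3, 12.5 and 11.9 FPKM in control, 16.8, 20.9 and 18.7 with PA, 35.3, 24.6 and 19.2 with PA+OA, and 15.2, 15.5 and 8.67 with PA+BMS. PA+OA libraries were all above control and PA+BMS, and PA replicate 1 lay just below control replicate 1. The log2 change of BAX was 0.85 ± 0.24 (SE) in PA+OA against control (limma adjusted p = 0.0177) and -0.95 ± 0.24 in PA+BMS against PA+OA (adjusted p = 0.0100). Without PA+OA replicate 1 or control replicate 2 or 3 the rise against control was not called (adjusted p of up to 0.0705), and without PA+OA replicate 1 it was 0.63. It was also not called with no filter on low values (adjusted p = 0.0608). The fall of BAX in PA+BMS against PA+OA was not called without the 2 libraries that stood apart (-0.48, adjusted p = 0.0728), with the trend removed as well (-0.23, adjusted p = 0.246) or with only those groups fitted (adjusted p = 0.0506). BAX was at 0.42 between PA and control (interval -0.10 to 0.95), at 0.43 between PA+OA and PA (interval -0.094 to 0.96) and at -0.52 between PA+BMS and PA (interval -1.05 to 0.0035), and none was called. BAX was called in PA against control without the 2 libraries that stood apart (adjusted p = 0.0272) and with only those groups fitted (adjusted p = 0.0392), and in PA+BMS against PA without PA+OA replicate 1 (adjusted p = 0.0472). With the trend with GC content and length removed, BAX was at 0.039 in PA against control (adjusted p = 0.869) and at 0.011 in PA+BMS against PA (adjusted p = 0.959). In PA+OA against PA it was then at 0.46 (adjusted p = 0.0528), and none of these was called.

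Of the death receptors, TNFRSF10B was higher in PA than in control and higher again in PA+OA, and TNFRSF10A was lower in PA+BMS than in PA. FAS was called lower in PA and PA+OA than in control, after it passed the filter through control and PA+BMS libraries alone. TNFRSF10B (ENSG00000120889, chromosome 8, 23020133 to 23069179), a TRAIL receptor with a death domain, was at 26.5, 26.6 and 25.7 FPKM in control, 32.5, 34.2 and 32.6 with PA, 43.2, 53.3 and 50.2 with PA+OA, and 30.7, 31.2 and 29.7 with PA+BMS. No groups overlapped, and the order was PA+OA, PA, PA+BMS and control. The means were 26.3 ± 0.474 in control, 33.1 ± 0.918 with PA, 48.9 ± 5.17 with PA+OA and 30.5 ± 0.771 with PA+BMS (SD, n = 3 each). TNFRSF10B was the only one of the 10 genes called in PA+OA against PA, with a rise of 0.54 ± 0.10 (SE; limma adjusted p = 0.00592), or 1.48-fold in mean FPKM. That rise was called with each library left out, and it was not called when only the PA and PA+OA libraries were fitted (adjusted p = 0.0699). Against control it rose by 0.87 in PA+OA (adjusted p = 9.2e-05), called in every alternative. It fell by 0.66 in PA+BMS against PA+OA (adjusted p = 0.00116), which was not called with library totals set equal (-0.33, adjusted p = 0.0934), where the median of all genes was 0.24.

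TNFRSF10B rose by 0.32 ± 0.10 (SE) in PA against control (limma adjusted p = 0.0362). This call was lost in 8 of the 12 fits with one library left out, namely without any one of the control and PA libraries or without PA+BMS replicate 1 or 2, with an adjusted p of up to 0.123. With library totals set equal its log2 change was 0.052 (adjusted p = 0.819), a scaling that moved the median of all genes from 0.028 to -0.18. Relative to that median TNFRSF10B stood at 0.23, against 0.29 as reported. With quantile normalization, which left the median of all genes at 0.026, its change was 0.16 (adjusted p = 0.394), and with voom it was 0.31 (adjusted p = 0.0528), neither called. RHOBTB2, a gene on the other strand that shares exonic bases with TNFRSF10B, reached 12.1 FPKM, and reads of the pair cannot be told apart.

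TNFRSF10A (ENSG00000104689, chromosome 8, 23190452 to 23225126), the other TRAIL receptor with a death domain, was at 7.80, 9.56 and 10.1 FPKM in control, 12.4, 10.1 and 10.1 with PA, 8.81, 11.1 and 8.88 with PA+OA, and 7.88, 7.71 and 7.72 with PA+BMS. The PA+BMS libraries were closely grouped and lay below all PA and PA+OA libraries, while control overlapped every group. TNFRSF10A fell by 0.43 ± 0.13 (SE) in PA+BMS against PA (limma adjusted p = 0.0159). The call was lost without PA replicate 1 (adjusted p = 0.0636), after removal of the trend with GC content and length (log2 change -0.28, adjusted p = 0.125) and with library totals set equal (log2 change -0.086, adjusted p = 0.682). The last scaling moved the median of all genes from -0.044 to 0.24. Relative to the median TNFRSF10A stood at -0.33 there, against -0.38 as reported. Between PA and control it was at 0.23, with an interval of -0.049 to 0.50. TNFRSF10A-AS1 and AC100861.1, both on the other strand over exonic bases of TNFRSF10A, reached 3.40 and 2.12 FPKM, and were not separated from it.

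FAS (ENSG00000026103, chromosome 10, 88990582 to 89015785) had the lowest mean over the 12 libraries of the 10 genes, with 40 to 121 reads per library. It was at 0.954, 1.28 and 1.40 FPKM in control, 0.647, 0.737 and 0.551 with PA, 0.713, 0.695 and 0.794 with PA+OA, and 0.947, 1.25 and 1.36 with PA+BMS. Control and PA+BMS overlapped and lay above PA and PA+OA, which also overlapped. FAS fell by 0.42 ± 0.12 (SE) in PA against control (limma adjusted p = 0.0279) and by 0.34 in PA+OA against control (adjusted p = 0.0454), and it rose by 0.41 ± 0.12 in PA+BMS against PA (adjusted p = 0.0174) and by 0.33 in PA+BMS against PA+OA (adjusted p = 0.0421). FAS passed the filter on low values through control and PA+BMS libraries alone, where it was high, and with no such filter the fall in PA against control was not called (adjusted p = 0.0626). Also not called without the filter were its changes in PA+OA against control (adjusted p = 0.083) and PA+BMS against PA+OA (adjusted p = 0.0801). The call in PA against control was also lost without control replicate 2 or 3 or any PA library (adjusted p of up to 0.104), and that in PA+BMS against PA without PA replicate 3 or PA+BMS replicate 3 (adjusted p of up to 0.0596). Each of the calls against or between PA+OA was lost in 9 of 12 fits with one library left out. Once the trend with GC content and length was removed, FAS was at -0.067 in PA against control (adjusted p = 0.68) and at -0.038 in PA+BMS against PA (adjusted p = 0.803), the reverse of the called direction. ACTA2, on the other strand over exonic bases of FAS, reached 1.22 FPKM, about the level of FAS itself.

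The 10 transcripts span much of the GC range, and the changes of all genes followed GC content. GC content of the longest transcript and the deposited gene length took up 43.3% of the variance of the log2 changes of all genes for PA against control, 7.79% for PA+OA against PA and 55.7% for PA+BMS against PA. When genes were split into 10 groups of equal size by GC content, those of lowest GC had a median change of -0.37 in PA against control and those of highest GC 0.38. For PA+BMS against PA these medians were 0.48 and -0.59. FAS, at 39.1% GC, and BAK1 and BAX, at 58.8% and 58.9%, moved in the direction of the trend at their GC content in both comparisons. The rise of BAK1 in PA against control, 0.72, was above the upper quartile of 0.52 of genes of like GC content. PMAIP1, at 37.2% GC, rose in PA against control where genes of like GC content had lower values, and BBC3, at 69.7%, rose by more than the median of the genes of highest GC. TNFRSF10A and TNFRSF10B, at 50.1% and 50.0%, lie near the median of tested genes of 49.2%. With the trend removed, 17 of the 26 calls over the 6 comparisons remained calls; whether the trend is technical or part of the response was not tested.

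**Figure D3:**
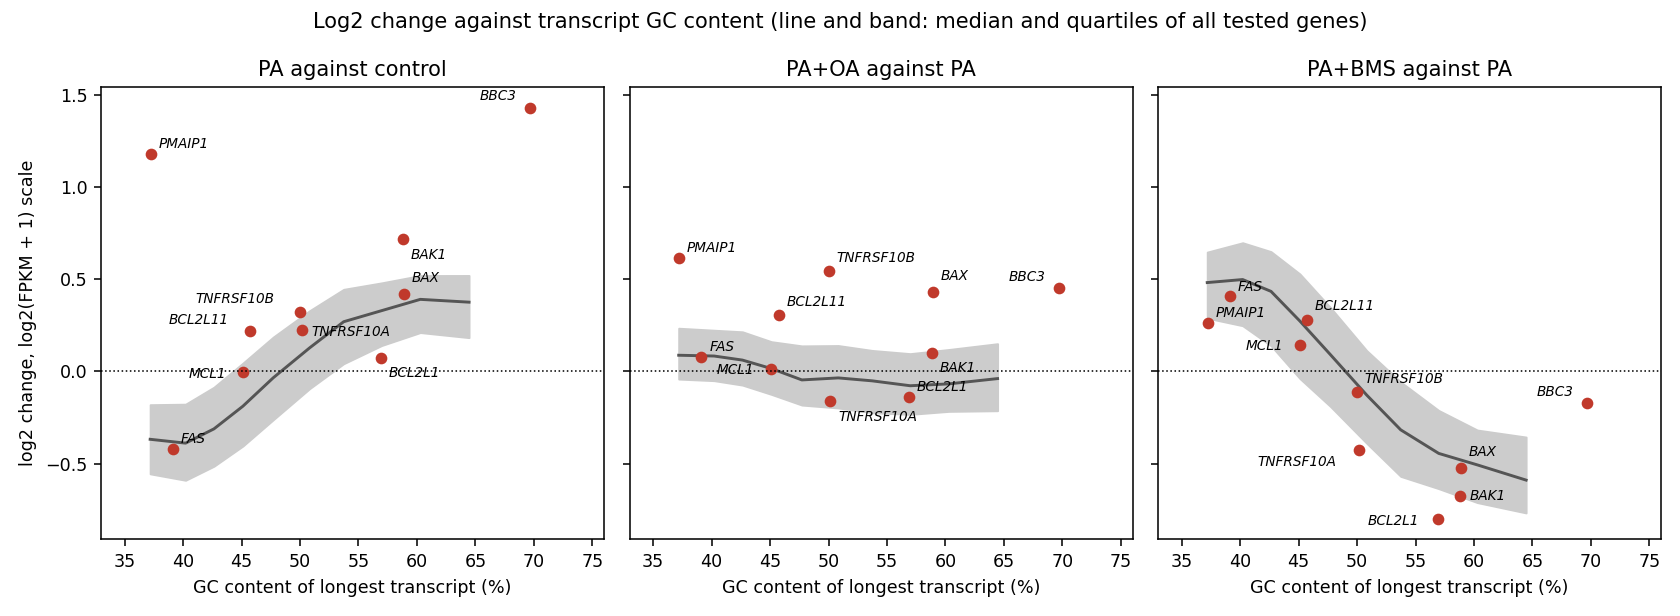
Log2 change of the 10 genes (red points, vertical axis, log2(FPKM + 1) scale) against GC content of the longest transcript (horizontal axis, %), with the median (line) and quartiles (band) of all tested genes in 10 groups by GC content. On the left, for PA against control, PMAIP1 and BBC3 lie far above the band, BAK1 and BCL2L11 above it, BCL2L1 below it, and FAS, BAX and TNFRSF10B within or at it. In PA+BMS against PA most of the genes follow the falling band. There BCL2L1 and TNFRSF10A lie below it, PMAIP1 just below it, and BBC3 above its end.

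Removing the trend left the rises of BBC3 and PMAIP1 in PA against control at 1.15 (adjusted p = 0.00221) and 1.50 (adjusted p = 0.000932), and that of TNFRSF10B at 0.26 (adjusted p = 0.0289). BCL2L11 was then called in this comparison, at 0.41 (adjusted p = 0.00433). In PA+OA against PA, TNFRSF10B was at 0.58 (adjusted p = 0.000411) and BCL2L11 at 0.34 (adjusted p = 0.0106), both called. BCL2L1 was the one gene of the 10 still called in PA+BMS against PA, at -0.35 (adjusted p = 0.0216), less than its -0.80 as reported. Without the 2 libraries that stood apart, 23 of the 26 calls remained calls.

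**Figure D4:**
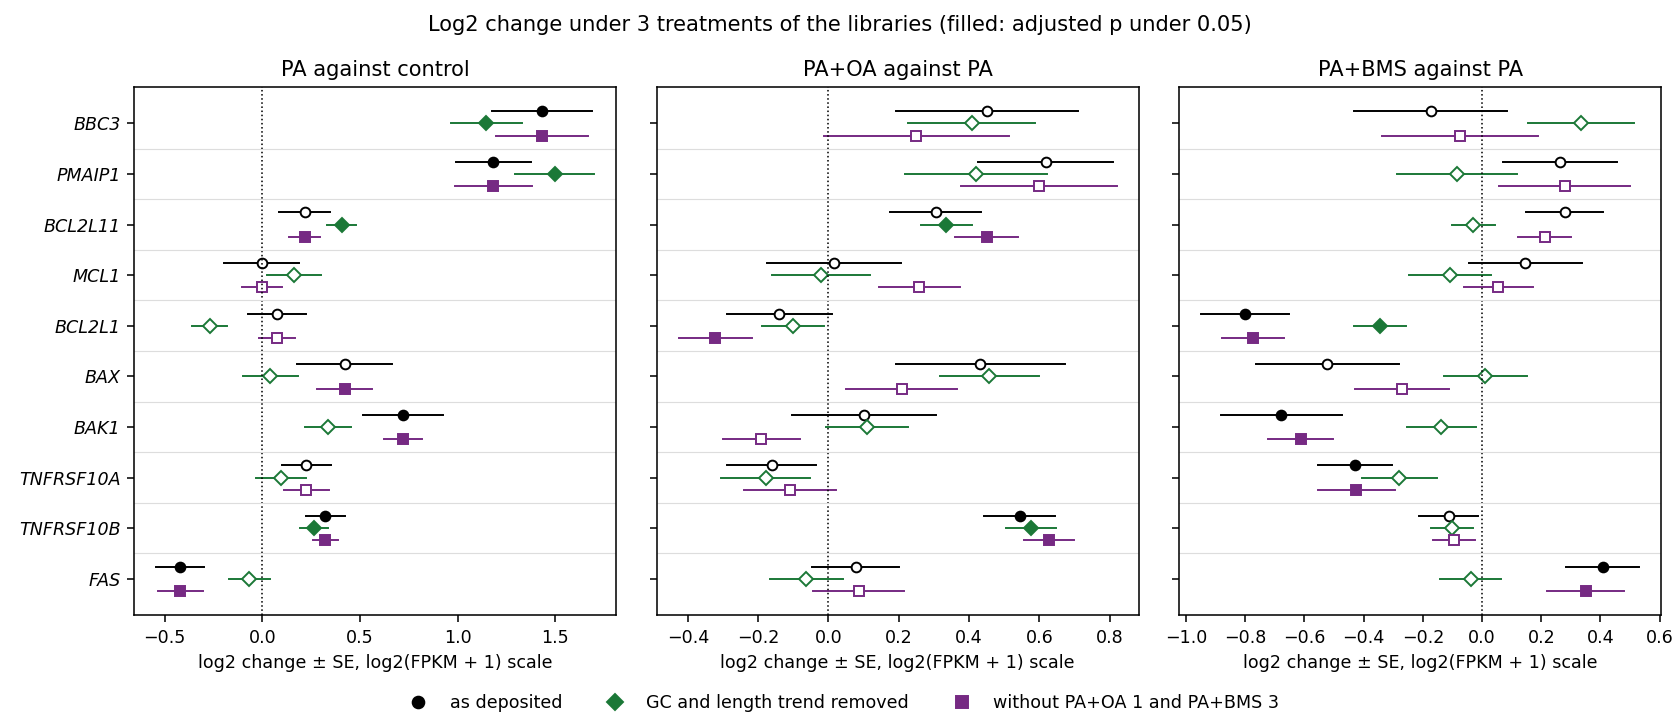
Log2 change ± SE (horizontal axes, log2(FPKM + 1) scale, one range per panel) of the 10 genes as deposited (circles), with each library's GC and length trend removed (diamonds) and without the 2 libraries that stood apart (squares); filled symbols have an adjusted p under 0.05. BBC3 and PMAIP1 on the left, TNFRSF10B in the middle and BCL2L1 on the right are filled under all 3, and FAS lies near 0 once the trend is removed.

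Around these genes, 50 other genes of the apoptotic pathways in 7 lists were examined, of which 38 were tested. Of these, 7 rose and 4 fell in PA against control, where 12.8% of all tested genes rose and 14.8% fell, and the median log2 change was 0.16. PA+OA against PA had 7 rises and 1 fall, where 4.01% and 3.91% of all genes did. PA+BMS against PA had 11 rises and 9 falls, where 25.2% and 29.4% of all genes did. Once the trend with GC content and length was removed it had 6 rises and 4 falls, where 1060 of all 11856 tested genes rose and 1631 fell. Without the 2 libraries that stood apart, 17 of the 38 rose and 7 fell in PA against control, where 3550 of all 11856 tested genes rose and 3173 fell. Among genes under 1 FPKM in every library were FASLG, TNFSF10 and TNF, the ligands of FAS, of the TRAIL receptors and of TNF receptors, and the decoy TRAIL receptor TNFRSF10C.

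The list of upstream regulators held 6 of the 7 rises in PA against control, 5 of the 7 in PA+OA against PA and 2 of the 11 in PA+BMS against PA. This list was chosen with earlier results of these data known, so its counts are a description only. With PA against control, 6 of 9 tested members rose and none fell, where 12.8% of all tested genes rose and 14.8% fell. Their median log2 change was 1.68. JUN, an AP-1 subunit, rose by 2.72 ± 0.11 (SE), from a mean of 6.25 to 46.7 FPKM, and ATF3, a stress-induced factor, by 2.48 ± 0.26. ATF4, the translation-controlled factor of the integrated stress response, rose by 1.68 ± 0.33 (limma adjusted p = 0.0062), and DDIT3, which encodes CHOP, by 1.93 ± 0.41 (adjusted p = 0.0091). In PA+OA against PA 5 of 9 rose and none fell, where 4.01% of all genes rose and 3.91% fell. DDIT3 rose again, by 2.26 ± 0.41 (adjusted p = 0.0055), from 22.7 to 112.6 FPKM, with JUN at 0.91 and XBP1, a factor of the unfolded protein response, at 0.72, while ATF4 at 0.13 was not called. FOXO3, a transcription factor known to act on BCL2L11, rose by 0.87 ± 0.21 in PA+BMS against PA, while ATF4 at -0.52 and DDIT3 at 0.34 were not called.

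Among other BCL2 family genes, none rose and 2 of 8 tested effector and BH3-only genes fell in PA against control, where 12.8% of all genes rose and 14.8% fell. BMF, a BH3-only gene, fell by 0.80 ± 0.15 (limma adjusted p = 0.0050), from a mean of 1.59 to 0.466 FPKM. With a PA mean under 1 FPKM, BMF may have passed the filter on low values only through groups where it was high. BNIP3L, a mitochondrial receptor for mitophagy, fell by 0.54 ± 0.15. The BNIP3L call was lost without control replicate 2 or 3 or any PA library and with the trend removed (-0.18, adjusted p = 0.258). BCL2L13 rose by 0.45 ± 0.092 in PA+OA against PA (adjusted p = 0.0108), which was not called without PA replicate 3 or PA+OA replicate 2 (adjusted p of up to 0.0548). BCL2, the founding antiapoptotic gene, rose by 0.68 ± 0.16 in PA+BMS against PA (adjusted p = 0.0075), from 0.992 to 2.21 FPKM, whereas BCL2L1 fell. With the trend removed the rise of BCL2 was 0.30 (adjusted p = 0.039). The PA mean of BCL2 was also under 1 FPKM, so it may have passed the filter only through groups where it was high. In PA+BMS against PA, BNIP3L rose by 0.58 and BID, which links death receptors to mitochondria, fell by 0.58. They were among 2 rises and 3 falls in that list of 8, where 25.2% of all genes rose and 29.4% fell. The BNIP3L rise was not called with the trend removed (0.13, adjusted p = 0.38), nor the BID fall without PA+BMS replicate 3 (adjusted p = 0.0501).

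Of the other receptors and ligands, 3 of 8 were tested. TNFRSF21, a death domain receptor, rose by 0.83 ± 0.15 in PA against control (limma adjusted p = 0.0050), TNFRSF10D, a decoy receptor for TRAIL, fell by 0.88 ± 0.25 in PA+OA against PA (adjusted p = 0.0483), and TNFRSF1A, a TNF receptor, fell by 0.47 ± 0.15 in PA+BMS against PA (adjusted p = 0.0189). The TNFRSF10D call was lost in 9 of 12 fits with one library left out, and the TNFRSF1A call without PA replicate 1 or 2 or PA+BMS replicate 3 and with the trend removed (-0.044, adjusted p = 0.688). None of 5 tested adaptors was called in PA against control or PA+OA against PA, where 27.6% and 7.91% of all genes were. In PA+BMS against PA 1 of the 5 rose and 2 fell, where 25.2% of all genes rose and 29.4% fell. The adaptor FADD fell by 0.71 ± 0.15 there and CFLAR, which encodes the inhibitor of caspase-8, by 0.29 ± 0.096. With the trend removed FADD was at -0.17 and not called (adjusted p = 0.264), and CFLAR was at -0.81 (adjusted p = 0.0125). The CFLAR call was lost without PA replicate 1 or 2 or PA+BMS replicate 1 or 3. Among 7 tested apoptosome and caspase genes, 3 rose and 2 fell in PA+BMS against PA, where 25.2% of all genes rose and 29.4% fell. Their median log2 change was 0.33. With the trend removed 1 rose and 1 fell, where 1060 of all 11856 genes rose and 1631 fell. CASP9, the initiator of the apoptosome, fell by 1.10 ± 0.17 there as reported (adjusted p = 0.0025). In PA against control 2 of the 7 fell and none rose, where 14.8% of all genes fell and 12.8% rose. In PA+OA against PA 1 rose and none fell, where 4.01% of all genes rose and 3.91% fell. The caspase inhibitor genes BIRC2 and XIAP rose by 0.71 and 0.84 in PA+BMS against PA. Neither was called there with the trend removed (0.24 and 0.26, adjusted p = 0.205 and 0.167). The XIAP call was also lost without PA+BMS replicate 3 (adjusted p = 0.0574).

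**Figure D5:**
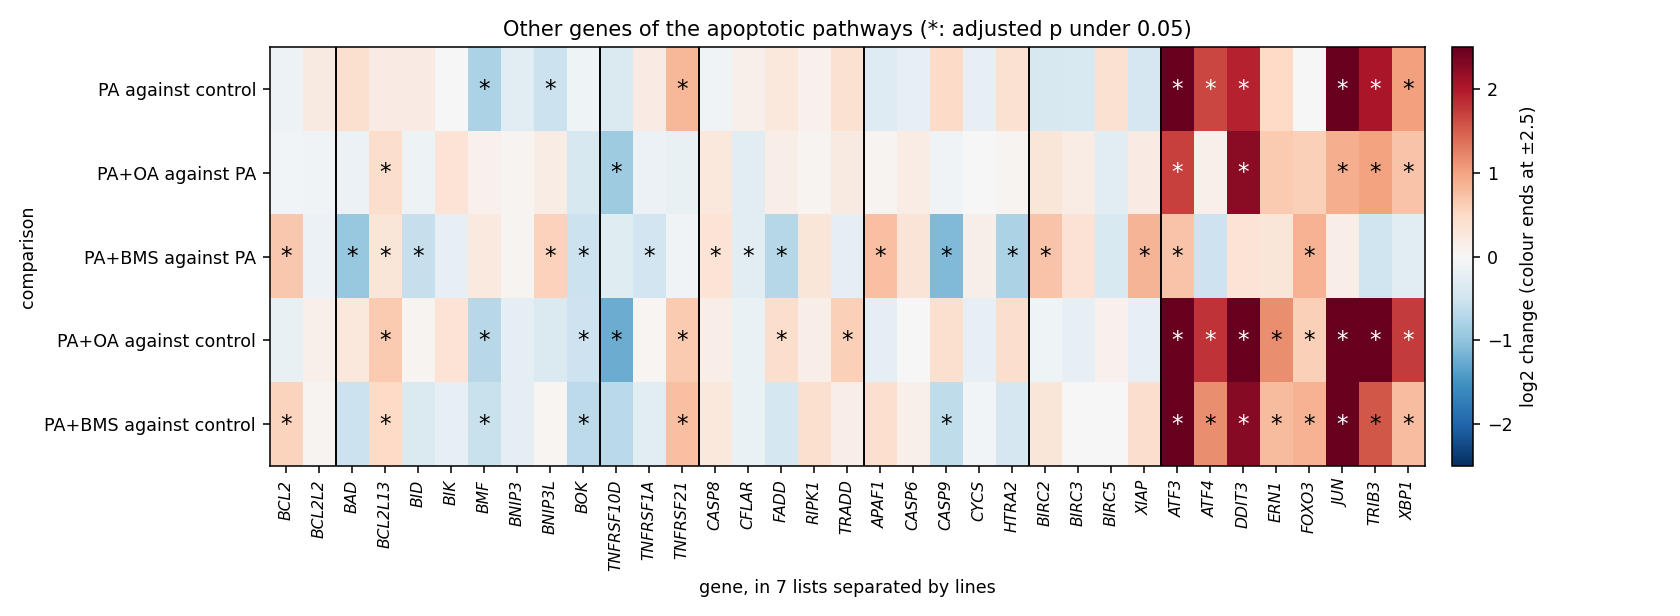
Log2 change (colour, ending at ±2.5) of 35 of the 38 tested genes of the 7 pathway lists (columns, lists separated by lines) in 5 comparisons (rows); an asterisk marks a limma adjusted p under 0.05. The deepest rises are those of the upstream regulators at the right, among them JUN, ATF3 and DDIT3, in the comparisons against control.

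Markers of cell types moved with the groups, most lists with PA+BMS and the endothelial list also with PA+OA. The bile duct and endothelial sums also did not overlap between PA and control. The summed FPKM of 6 bile duct markers, of which KRT7 alone reached 1 FPKM, was 477 to 564 in control, 571 to 669 in PA, 519.7 to 917 in PA+OA and 140 to 185 in PA+BMS. The simple epithelial keratins KRT8 and KRT18 together ranged from 458 to 681 FPKM in PA and from 221 to 242 in PA+BMS. Sums of 6 fibroblast markers, 3 of which reached 1 FPKM, were 19.1 to 21.0 in control and 14.7 to 15.9 in PA+BMS. The leukocyte and endothelial lists had 1 of 5 markers each above 1 FPKM, CSF1R and CDH5, and PTPRC and PECAM1 were below it in every library. The leukocyte sum was 1.51 to 2.20 FPKM in control, 1.70 to 2.10 in PA, 1.77 to 1.91 in PA+OA and 0.539 to 0.607 in PA+BMS. The endothelial sum was 1.39 to 1.84 in control, 1.07 to 1.36 in PA, 0.315 to 0.454 in PA+OA and 0.365 to 0.468 in PA+BMS. The part of these marker shifts in the changes between PA and control was not tested. Nor was their part in the fall of BCL2L1, BAK1 and TNFRSF10A and the rise of FAS in PA+BMS, or in the rise of TNFRSF10B in PA+OA.

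The genes whose levels were most alike were found by Pearson's correlation of log2(FPKM + 1) over the 12 libraries, which share groups, depth and the GC axis, as a description only. For PMAIP1 they were ATF3 (r = 0.985) and STC2 (r = 0.978), and for BBC3 TMEM79 (r = 0.988) and ADM2 (r = 0.986). BCL2L11 was most like SGK494 (r = 0.967) and CDR2 (r = 0.960), and TNFRSF10B most like DUSP6 (r = 0.982) and C20orf204 (r = 0.977). For BCL2L1 they were BAG1 (r = 0.984) and FSTL3 (r = 0.983), for BAX DOLPP1 (r = 0.988) and C9orf16 (r = 0.987), and for BAK1 NOSIP (r = 0.997). BAK1 had 359 genes within 0.05 of its highest correlation, TNFRSF10A 4, the latter led by HNRNPUL1 (r = 0.901) and SIRT5 (r = 0.865). FAS was most like TMEM237 (r = 0.974) and AIMP1 (r = 0.957). Among the 10 genes themselves, BBC3 and PMAIP1 had r = 0.96 and BAX and BAK1 r = 0.87.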

How the data were processed

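RNA was measured in 12 HepaRG libraries, 3 in each of 4 groups, from poly(A)-selected RNA per the labels' protocols. The deposited values are FPKM per gene. CASAVA, HISAT2 2.0.5 and featureCounts 1.5.0-p3 are listed, with no role, per the submitters' processing notes. No build, annotation or strand setting is given in the sources used here. All 58735 gene identifiers, symbols and coordinates equalled GENCODE 29 (GRCh38). Per library, FPKM times gene length came in whole steps for 100% of values (tolerance 0.001), so whole reads were recovered. Their total over the library size behind the FPKM ranged from 0.879 to 1.21. Those reads served only for depth and a voom alternative, which called 3501 genes in PA against control.

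The 11856 genes that reached 1 FPKM in 3 or more libraries were tested on log2(FPKM + 1) with limma 3.58.1 (R 4.3.3), fitting the 4 group means to the 12 libraries (residual df 8). The eBayes test with a trend was two-sided, and p was adjusted by Benjamini-Hochberg per comparison, for 6 comparisons, with a threshold of 0.05. The procedure was tested on simulated data. All 10 genes were tested in every comparison and every called change of theirs is given, while some changes that were not called are left out. Of each pathway list at most the 2 genes with the smallest p per main comparison are named, plus DDIT3 and ATF4, and the 2 most alike protein-coding genes of each called gene. A few genes this rule also selects are not reported here. Genes under 1 FPKM and the markers were named after their values were seen. The members and lists were chosen with earlier results of these data known. Alternatives were other pseudocounts, filters and scalings, a replicate block, only the 2 groups compared, subtracting from each library a spline trend (5 df) over GC content and one over length, voom, and leaving out libraries. Figures used matplotlib 3.10.9.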

Additional observations from a re-analysis of the deposited data

How the results depend on the processing

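Of 60 changes (10 genes in 6 comparisons), 26 were called, 16 of them in each of 12 fits with one library left out and 10 in all fits that tested them. With one library left out, the number of the 10 genes called ranged from 2 to 5 in PA against control, 1 to 2 in PA+OA against PA, 2 to 6 in PA+BMS against PA, 5 to 7 in PA+OA against control, 3 to 4 in PA+BMS against control and 4 to 7 in PA+BMS against PA+OA. With no filter on low values 3 genes were called in PA against control, in place of 5. In PA+OA against PA, in place of 1, 2 genes were called with the GC and length trend removed and with voom, 0 when only the 2 groups compared were fitted by limma, 3 without PA+OA replicate 1 together with PA+BMS replicate 3, with or without the trend, and 4 without control replicate 1 as well. At an unadjusted p under 0.05, limma on the 2 groups alone passed 3 of the 10. With the trend removed, 1 gene was called in PA+BMS against PA, in place of 4, with or without the 2 libraries that stood apart, and 3 in PA+BMS against PA+OA, in place of 5. The latter count was 3 without those 2 libraries, 2 without them and without the trend, and 2 with only the 2 groups compared. FAS in PA+BMS against PA reversed to -0.038 without the trend and to -0.021 when those libraries were also left out (chosen after seeing the data, as was the removal of 3 libraries). The cause of these shifts was not tested. A filter at 5 FPKM left BCL2L11 and FAS untested.
Calls over all genes moved further. With one library left out they ranged from 795 (without control replicate 2) to 5336 (without PA+OA replicate 1) in PA against control, 473 to 1946 in PA+OA against PA, 3687 to 7414 in PA+BMS against PA, 2486 to 5029 in PA+OA against control, 654 to 2330 in PA+BMS against control and 3017 to 6290 in PA+BMS against PA+OA. In PA against control they numbered 3272, against 1599 with no filter, 1911 with the trend removed, 5906 with only the 2 groups fitted, 6723 without those 2 libraries, and 7268 without control replicate 1 as well; in PA+OA against PA 938 became 1559, 464, 3016 and 3833 under the last 4 of these. In PA+BMS against PA 6463 became 2691 with the trend removed, in PA+BMS against control 1306 became 2271, 2159 without those 2 libraries and 853 with a filter at 5 FPKM, and in PA+BMS against PA+OA 5878 became 2567 without them and 2066 with only the 2 groups. With library totals set equal, 15.2% of calls were rises in PA against control and 79.2% in PA+BMS against PA, in place of 46.4% and 46.1%, and the median of all genes in the latter moved from -0.044 to 0.24.
Of 18 pairs of libraries with the same replicate number, 9 had correlated deviations over 0.1, and 6 of 12 libraries correlated best with their own number. All 3 pairs exceeded it between control and PA+OA alone (0.488, 0.269 and 0.156), where the block left 7 of the 10 genes called. For replicates 1 to 3 the values were 0.499, -0.138 and 0.563 between PA+OA and PA+BMS. They were 0.445, -0.196 and 0.385 between control and PA+BMS, and -0.195, -0.148 and -0.0951 between control and PA. These values do not settle whether the numbers pair the libraries. With the block, calls over all genes in PA against control went from 3272 to 4652. With the replicate block, all 26 calls remained and 3 more changes were called, which made 2 genes in PA+OA against PA in place of 1: PMAIP1 there (adjusted p = 0.0418), BAX in PA+BMS against PA (adjusted p = 0.032) and BBC3 in PA+BMS against PA+OA (adjusted p = 0.0203). FAS, at 40 to 121 reads, has the least depth of the 10.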
